A study of Homo sapiens with 9 samples.

Results

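TM4SF4 and 7 other genes for tetraspan membrane proteins (TM4SF1, TM4SF18, CD9, CD63, CD81, CD82 and CD151) were examined by RNA sequencing in OVCAR5 ovarian cancer cells. The genes were taken by symbol from a fixed list of 8 and matched to the count table by their Ensembl identifier, so they make up 8 of 60649 identifiers. All 8 passed the filter on low counts, which left 19674 genes for testing. TM4SF4 was chosen by its level, which was higher in both groups labelled as METTL3 knockdown than in the control libraries, so its values against the control are given as a description with no test.

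Tetraspan proteins cross the membrane repeatedly and keep both ends inside the cell. The tetraspanins, among them CD9, CD63, CD81, CD82 and CD151, gather integrins, immunoglobulin-domain proteins and proteases into membrane microdomains, and several of them are standard markers of extracellular vesicles. The L6 family, to which TM4SF1, TM4SF4 and TM4SF18 belong, has the same topology but a separate sequence, and TM4SF1 is a known surface antigen of epithelial tumours.

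OVCAR5 is an established human ovarian cancer cell line, and all 9 libraries came from stable lines made by lentiviral transduction and puromycin selection. They form 3 groups of 3 libraries: the control NC, and SM2 and SM4, which the labels describe as knockdowns of METTL3, the catalytic subunit of the complex that writes N6-methyladenosine (m6A) on messenger RNA. The labels do not say which hairpin SM2 or SM4 carried, they call the control parental although the study's methods mention a control hairpin, and a source field gives a different OVCAR name to each SM4 library while the cell line field gives OVCAR5 throughout. Nothing says that the libraries of a group came from separate cultures, so p-values measure the spread between these libraries, which may be technical.

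METTL3 did not follow the labels. It stood at 36.2, 34.4 and 36.6 CPM (counts scaled to the library total) in the libraries labelled NC, at 37.1, 39.8 and 40.0 CPM in those labelled SM2 and at 60.6, 57.5 and 62.4 CPM in those labelled SM4. By edgeR's quasi-likelihood test, SM2 against NC had a log2 fold change of 0.12 (adjusted p 0.12) and SM4 against NC one of 0.75 (adjusted p 2.21e-09). METTL3 was thus highest in the libraries labelled SM4. Read with SM4 as the reference, its log2 fold change was -0.75 in NC and -0.63 in SM2. Which group was the control cannot be told from the labels and counts, so groups are named by their labels throughout, and each direction rests on the labels alone. With SM4 as the reference, TM4SF4 would stand at -3.67 in NC and -0.25 in SM2, TM4SF1 at -0.33 and 0.13, TM4SF18 at -1.03 and -0.73, CD9 at -0.16 and -0.23 and CD81 at -0.00 and 0.24.

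Library totals ran from 44103272 to 63693728 counts, so that 1 CPM stood for 43.8 to 63.2 counts. SM2 replicate 3 stood apart from the other SM2 libraries, with a chi-square of 16.7 and 13.8 per degree of freedom in its pairs against 4.21 to 6.04 in the other 7 replicate pairs, and it was the highest SM2 library for all 8 genes. Of 13 ovarian epithelial cancer markers, 12 reached 1 CPM in every group and WT1 did not, with summed levels of 11459 to 11932 CPM in NC, 12880 to 13419 CPM in SM2 and 12440 to 13197 CPM in SM4. Markers of other cells were low. The endothelial list summed to 5.45 to 5.89 CPM in NC, 7.79 to 9.05 CPM in SM2 and 13.1 to 15.3 CPM in SM4, and only PECAM1 of its 5 genes reached 1 CPM. The leukocyte list summed to 5.43 to 6.53, 8.11 to 9.02 and 10.0 to 10.7 CPM in the same order, and of its 6 genes only CD14 reached 1 CPM. Fibroblast markers summed to 21.3 to 27.3 CPM over all libraries with COL1A1 alone of 6 above 1 CPM, and hepatocyte and gut markers to 16.1 to 21.2 CPM with 3 of 8 above it. The part of these cells in the results was not tested. In bulk RNA, a change in the share of cells that express a gene and a change in RNA per cell cannot be told apart.

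A gene was called at a Benjamini-Hochberg adjusted p below 0.05 over the 19674 genes in edgeR's quasi-likelihood test, the test behind every adjusted p below. Of the 7 genes other than TM4SF4, 3 were called higher in SM2 against NC (TM4SF1, TM4SF18 and CD81) and 0 lower, where 22.3% of all tested genes were called (12.0% higher, 10.3% lower). In SM4 against NC, 4 of the 7 were called higher (TM4SF1, TM4SF18, CD9 and CD82) and 0 lower, where 21.2% of all genes were called (11.0% higher, 10.2% lower). In SM4 against SM2, 2 of all 8 were called higher (TM4SF18 and CD9) and 2 lower (TM4SF1 and CD81), where 12.8% of all genes were called (6.04% higher, 6.76% lower). The SM4 count against NC was the least steady, since it dropped from 4 to 2 when NC replicate 1, NC replicate 2, SM4 replicate 2 or SM4 replicate 3 was left out. Both comparisons with NC share the NC libraries and are given side by side. Among the 7 genes other than TM4SF4, the middle log2 fold change was 0.11 in SM2 against NC (CD151). In SM4 against NC it was 0.15 (CD82), beside a median of -0.00 over all genes tested in each comparison.

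The 3 L6 genes of the list lie close together on chromosome 3 (GRCh38): TM4SF18 at 149318498 to 149334414 and TM4SF1 at 149369022 to 149377692 on the minus strand, and TM4SF4 at 149474697 to 149503394 on the plus strand. Because all 3 were higher in both labelled knockdown groups, the sequences upstream of their start sites are shown. They are RefSeq promoters of GRCh38.p14, read 5′ to 3′ on the strand of the gene, and capitals mark motif matches. TM4SF4 is shown for chr3:149474447-149474696 (plus strand), TM4SF1 for chr3:149377700-149377899 (minus strand, without the stretch next to the RefSeq start) and TM4SF18 for chr3:149333637-149333886 (minus strand, inside the GENCODE gene span but overlapping none of its exons).
TM4SF4: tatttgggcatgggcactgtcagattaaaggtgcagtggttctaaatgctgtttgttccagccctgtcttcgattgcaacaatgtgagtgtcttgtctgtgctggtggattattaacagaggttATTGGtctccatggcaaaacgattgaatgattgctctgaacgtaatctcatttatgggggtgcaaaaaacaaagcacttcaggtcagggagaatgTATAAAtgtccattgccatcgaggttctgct
TM4SF1: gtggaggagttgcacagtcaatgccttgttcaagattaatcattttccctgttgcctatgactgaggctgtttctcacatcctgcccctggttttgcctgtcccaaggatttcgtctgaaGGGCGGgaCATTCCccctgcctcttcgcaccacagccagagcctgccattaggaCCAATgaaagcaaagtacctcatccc
TM4SF18: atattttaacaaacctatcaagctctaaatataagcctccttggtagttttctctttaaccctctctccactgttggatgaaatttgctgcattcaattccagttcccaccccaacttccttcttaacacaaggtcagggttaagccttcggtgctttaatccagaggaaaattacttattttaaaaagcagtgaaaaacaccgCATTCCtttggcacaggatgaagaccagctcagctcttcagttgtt

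These stretches shared few of the motifs searched. Looked for on both strands in the 250 bases before the RefSeq start, the TATA box letters TATAAA stood in TM4SF4 alone of the 3, from 31 to 26 bases before the start, and in 10.7% of 35116 promoters. CCAAT stood in TM4SF4 (126 to 122 bases before the start, minus strand) and in TM4SF1 (76 to 72 bases before it), and in 32.0% of all promoters. The GC box letters GGGCGG were found in TM4SF1 alone of the 3 and in 42.6% of all promoters. The TEAD letters GGAATG occurred at 2 places in TM4SF1, 122 to 117 and 13 to 8 bases before the start, the latter outside the printed stretch, once in TM4SF18 at 46 to 41 bases before it, and in 11.9% of all promoters. TGANTCA, the letters of an AP-1 site, were in none of these 3 windows and in 6.57% of all promoters. No match overlapped another, and a match describes letters, not a bound site.

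TM4SF4 (ENSG00000169903.7), an L6 protein known from liver and gut epithelium, was close to silent in the libraries labelled NC and present at a low level in all others. It had 16, 28 and 26 counts in the NC libraries, 215, 179 and 316 in SM2 and 341, 375 and 285 in SM4. As levels these were 0.365, 0.515 and 0.444 CPM in NC, 4.71, 3.72 and 5.96 CPM in SM2, and 5.61, 5.93 and 5.56 CPM in SM4. Every SM2 and SM4 library lay above every NC library, while the SM2 and SM4 libraries overlapped. The means were 0.441 ± 0.075 CPM in NC, 4.80 ± 1.12 CPM in SM2 and 5.70 ± 0.203 CPM in SM4 (SD, n = 3), which corresponds to log2 fold changes of 3.42 (10.7-fold) in SM2 against NC and 3.67 (12.7-fold) in SM4 against NC. The hepatocyte and gut markers summed to 20.9 to 21.2 CPM in NC, 19.7 to 20.9 CPM in SM2 and 16.1 to 18.6 CPM in SM4, and ALB, APOA1 and TTR stayed below 1 CPM in every library. Of the 4 such markers tested, 0 were called in SM2 against NC and CDX2 alone, lower, in SM4 against NC, with median log2 fold changes of 0.17 and 0.09. In SM2 against NC, VIL1 stood at 0.47 on the log2 scale (adjusted p 0.0945) and CDH17 at 0.88 (0.177). Below 0 were CDX2 at -0.14 (adjusted p 0.272) and HNF4A at -0.15 (0.329). For SM4 against NC, VIL1 stood at 0.46 (adjusted p 0.102, called at 0.61 without SM4 replicate 3) and CDH17 at 0.48 (0.522). CDX2 stood there at -0.45 (adjusted p 0.000558) and HNF4A at -0.28 (0.0572). HNF4A was called with only the 6 libraries compared (-0.28) and without SM4 replicate 2 (-0.34). The part of these markers in the level of TM4SF4 was not tested. Of 14432 genes with a mean of at least 1 CPM, 2 had a larger log2 fold change in SM2 against NC and 2 in SM4 against NC. Leaving out 1 library at a time gave 3.24 (without SM2 replicate 3) to 3.57 in the first comparison and 3.57 to 3.79 in the second.

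Whether TM4SF4 differed between the SM4 and SM2 libraries was open to a test. The log2 fold change was 0.25 (SE 0.147, 95% interval -0.06 to 0.55, adjusted p 0.317), which did not pass the threshold. Without SM2 replicate 2, the lowest of the SM2 libraries, it was 0.10, and without SM2 replicate 3, the highest, it was 0.44 (adjusted p 0.0538).

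TM4SF1 (ENSG00000169908.12), the L6 antigen, was much more abundant and rose in both groups. It stood at 167, 157 and 159.6 CPM in NC, 222, 217 and 224 CPM in SM2, and 205, 202 and 200.01 CPM in SM4. The 3 groups did not overlap, with NC lowest, SM4 between and SM2 highest. It differed by a log2 fold change of 0.45 in SM2 against NC (SE 0.0411, 95% interval 0.37 to 0.54, adjusted p 7.96e-08), a rise of 36.9%, and 0.33 in SM4 against NC (SE 0.041, interval 0.24 to 0.41, adjusted p 5.31e-06), a rise of 25.3%. Between the SM4 and SM2 libraries it was lower by 0.13 on the log2 scale (log2 fold change -0.13, interval -0.21 to -0.04, adjusted p 0.044). That call was lost in 11 of 16 alternative settings, among them the removal of any single library other than SM2 replicate 3, with log2 fold changes of -0.14 to -0.12.

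TM4SF18 (ENSG00000163762.7) showed the opposite order of the labelled knockdown groups. Its levels were 20.6, 20.8 and 20.8 CPM in NC, 24.999, 24.9 and 26.8 CPM in SM2, and 40.2, 43.99 and 43.0 CPM in SM4. The groups again did not overlap, and the NC libraries were nearly identical. It rose by 23.2% in SM2 against NC (log2 fold change 0.30, SE 0.0601, interval 0.18 to 0.43, adjusted p 0.00088) and 2.04-fold in SM4 against NC (log2 fold change 1.03, SE 0.0587, interval 0.91 to 1.15, adjusted p 7.55e-11). The libraries labelled SM4 exceeded those labelled SM2 by 0.73 on the log2 scale (SE 0.0581, interval 0.61 to 0.85, adjusted p 2.62e-08). TM4SF18 shares 124 exonic bases with TM4SF18-AS1 on the other strand, which had at most 9 counts in any library. Whether the counting used strand is not stated in the sources used here.

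**Figure D1:**
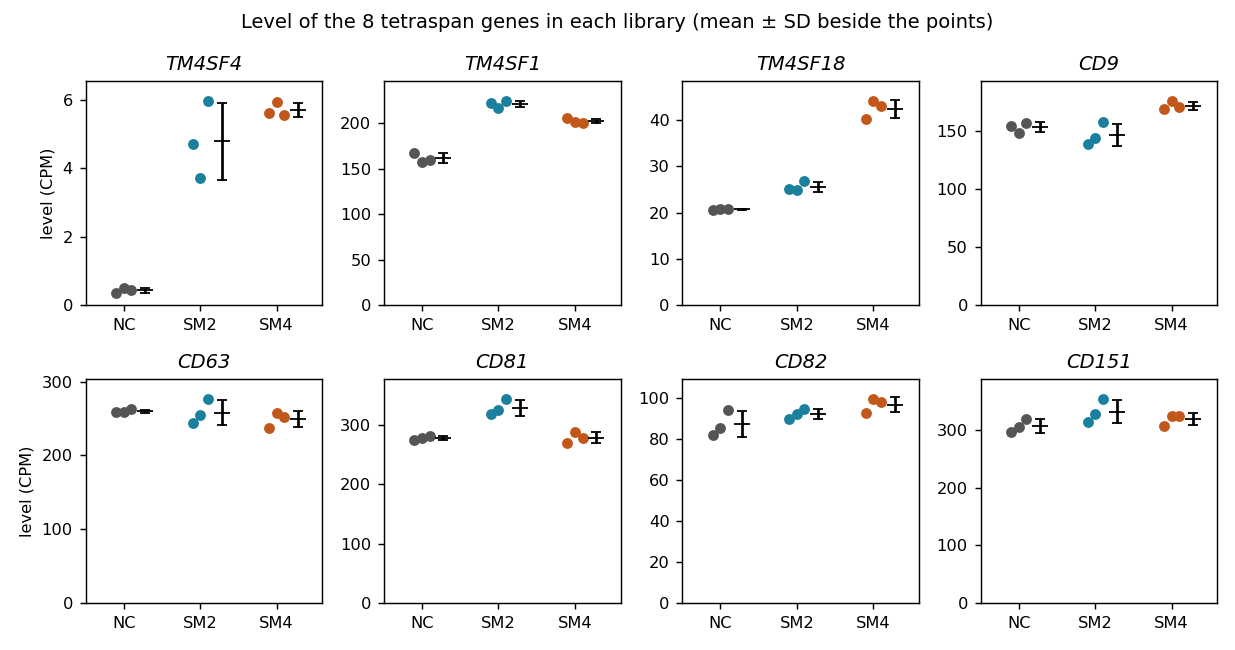
Level of each of the 8 genes in CPM (linear axis from 0, scaled per gene) in the 3 libraries of NC, SM2 and SM4; points are libraries and the bars beside them are the mean ± SD. TM4SF4 goes from below 0.6 CPM in NC to between 3.72 and 5.96 CPM in the other groups, TM4SF18 is highest in SM4, and CD81 is highest in SM2.

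The remaining L6 genes were barely detected. TM4SF19 had 9, 17 and 13 counts in NC, against 3, 3 and 8 in SM2 (-1.37 on the log2 scale, adjusted p 0.154) and 14, 1 and 7 in SM4 (-0.96, adjusted p 0.315). TM4SF5 and TM4SF20 did not pass the filter, with at most 4 and 6 counts in any library. The L6 family thus had 4 of its 6 members tested, of which 3 were on the list.

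Around TM4SF4, the other changes were small beside that of TM4SF4 itself. Within 500 kb of TM4SF4, 17 of 37 annotated genes were tested. Of the 16 other than TM4SF4, 3 were called higher in SM2 against NC (TM4SF18, TM4SF1 and RNF13) and 2 lower (GYG1 and PFN2), or 31.2% beside 22.3% of all genes. Of those 16, 2 were called higher in SM4 against NC (TM4SF18 and TM4SF1) and 2 lower (CP and PFN2), beside 21.2% of all genes. PFN2, a profilin that binds actin, fell by 0.25 on the log2 scale in SM2 (from 142 to 119.7 CPM, adjusted p 0.000211) and by 0.19 in SM4 (124 CPM, adjusted p 0.00224). GYG1, which primes glycogen synthesis, fell by 0.26 in SM2 (52.4 to 43.8 CPM, adjusted p 0.000664).

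Neither WWTR1 nor TM4SF1-AS1 was called in either comparison with NC. WWTR1, which encodes the transcriptional coactivator TAZ and starts 262 kb beyond TM4SF4, stood at 68.2 CPM in NC, 62.7 CPM in SM2 and 62.2 CPM in SM4, with adjusted p of 0.0928 and 0.0652. In SM4 against NC it was called with only the 6 libraries compared (-0.14) and with a replicate block (-0.13). The same held without SM2 replicate 3 (-0.13) or SM4 replicate 2 (-0.17). TM4SF1-AS1, an antisense transcript at the start of TM4SF1, was at 1.498, 1.49 and 1.97 CPM (adjusted p 0.995 and 0.181). The call of RNF13 (log2 fold change 0.17) was lost without NC replicate 2 (0.14), NC replicate 3 (0.16), SM2 replicate 1 (0.16) or SM2 replicate 2 (0.17), and that of CP (-0.20) without NC replicate 1 (-0.17), SM4 replicate 1 (-0.19) or SM4 replicate 3 (-0.18).

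**Figure D2:**
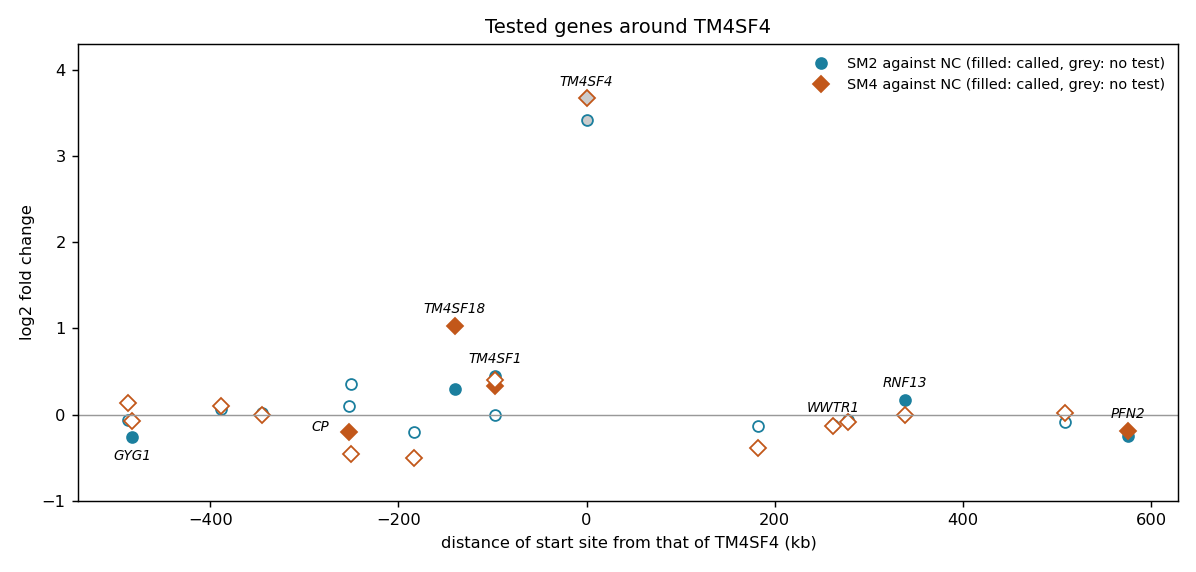
Log2 fold change against NC (vertical axis) of each tested gene near TM4SF4, by the distance of its start site from that of TM4SF4 in kilobases (horizontal axis), as circles for SM2 and diamonds for SM4; filled symbols were called, open ones were not, and grey ones (TM4SF4) were not tested. TM4SF4 stands at 3.42 and 3.67, TM4SF18 at 0.30 and 1.03 and TM4SF1 at 0.45 and 0.33, and all other called neighbours lie between -0.26 and 0.17.

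CD81 (ENSG00000110651.12, chromosome 11, 2376177 to 2397802), a surface and vesicle tetraspanin that binds immunoglobulin-domain proteins, rose in the SM2 libraries. It stood at 275, 278 and 282 CPM in NC, 318, 325 and 344 CPM in SM2, and 269.5, 289 and 278 CPM in SM4. The SM2 libraries lay above all others, and those of SM4 overlapped with NC. The log2 fold change was 0.24 in SM2 against NC (SE 0.0426, interval 0.15 to 0.33, adjusted p 0.000266), and 0.21 (adjusted p 0.000131) without SM2 replicate 3. In SM4 against NC it was 0.003 (interval -0.09 to 0.09, adjusted p 0.974), a value whose sign changed with the setting. SM4 was lower than SM2 by 0.24 on the log2 scale (log2 fold change -0.24, interval -0.33 to -0.15, adjusted p 0.000563).

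CD9 (ENSG00000010278.15, chromosome 12, 6199715 to 6238271), a tetraspanin of the cell surface and of vesicles, differed in the SM4 libraries. Its levels were 154, 148 and 157 CPM in NC, 139, 144 and 157 CPM in SM2, and 168, 175 and 170.1 CPM in SM4. Each SM4 library lay above every other library, while SM2 overlapped with NC. The log2 fold change was 0.16 in SM4 against NC (SE 0.0477, interval 0.06 to 0.26, adjusted p 0.0181), a rise of 11.9%, and 0.23 in SM4 against SM2 (interval 0.13 to 0.32, adjusted p 0.00278). The call against NC was lost without NC replicate 1 (0.17, adjusted p 0.0523), NC replicate 2 (0.14, 0.113), SM4 replicate 2 (0.15, 0.0764) or SM4 replicate 3 (0.17, 0.0521). SM2 differed from NC by -0.06 (interval -0.16 to 0.04, adjusted p 0.399), and without SM2 replicate 3 it was -0.11 and passed the threshold (adjusted p 0.0493).

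CD82 (ENSG00000085117.12, chromosome 11, 44564427 to 44620358), known as a suppressor of metastasis, was called in SM4 against NC by a narrow margin. It stood at 82.3, 85.5 and 94.4 CPM in NC, 90.0, 92.5 and 94.8 CPM in SM2, and 92.9, 99.6 and 98.2 CPM in SM4, so that the highest NC library reached into both other groups. CD82 differed by 0.15 on the log2 scale in SM4 against NC (SE 0.0519, interval 0.04 to 0.26, adjusted p 0.0479), and the call was lost without NC replicate 1 (0.11), NC replicate 2 (0.13), SM2 replicate 2 (0.15), SM4 replicate 1 (0.18), SM4 replicate 2 (0.13) or SM4 replicate 3 (0.14). In SM2 against NC it was 0.08 (interval -0.03 to 0.19, adjusted p 0.309). CD82 shares 280 exonic bases with CD82-AS1 on the other strand, which was close to 0 CPM.

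CD63 and CD151 passed no test. CD63 (ENSG00000135404.12, chromosome 12, 55725323 to 55729707), a tetraspanin of late endosomes, lysosomes and secreted vesicles, stood at 259, 259 and 262 CPM in NC, 244, 254 and 276 CPM in SM2, and 237, 257 and 252 CPM in SM4. All 3 SM4 libraries lay below the NC libraries, yet the log2 fold change was -0.06 (interval -0.16 to 0.04, adjusted p 0.418), and in SM2 against NC it was -0.01 (interval -0.11 to 0.09, adjusted p 0.912). CD151 (ENSG00000177697.19, chromosome 11, 832887 to 839831), the partner of laminin-binding integrins, was at 296, 306 and 319 CPM in NC, 314, 328 and 354 CPM in SM2, and 306, 325 and 324 CPM in SM4, with all groups overlapping. Its log2 fold change was 0.11 in SM2 against NC (interval 0.01 to 0.21, adjusted p 0.101) and 0.05 in SM4 against NC (interval -0.05 to 0.15, adjusted p 0.504), and without SM2 replicate 1 the first of these was 0.15 and passed the threshold (adjusted p 0.0325). CD151 shares 257 exonic bases with POLR2L on the other strand, a subunit of the RNA polymerases, which was at 237, 246 and 219 CPM in NC, SM2 and SM4.

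**Figure D3:**
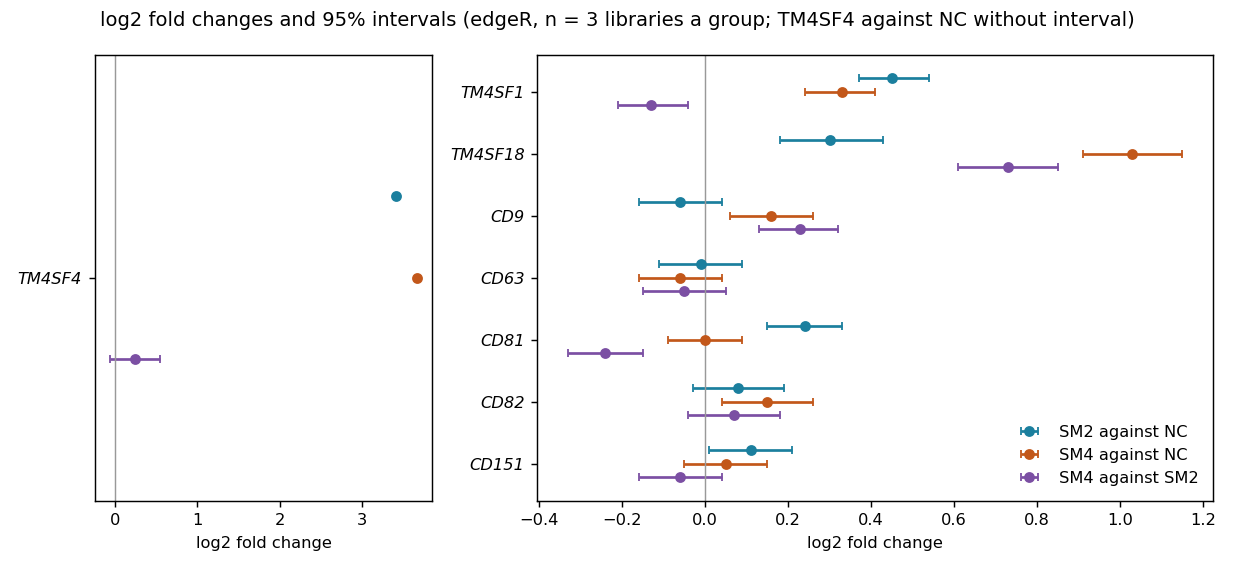
Log2 fold changes (horizontal axes) of the 8 genes in each comparison against NC and between SM4 and SM2, with 95% intervals from edgeR; TM4SF4 has its own axis and no interval against NC, since it was picked for that difference. TM4SF18 and TM4SF1 lie clear of 0 against NC in both groups, CD81 in SM2 (0.24) and not in SM4, and CD63 at -0.01 and -0.06 includes 0.

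Of the 7 genes other than TM4SF4, 3 had no overlap between libraries in SM2 against NC (TM4SF1, TM4SF18 and CD81), where 35.2% of all genes had none. In SM4 against NC it was 4 of the 7 (TM4SF1, TM4SF18 and CD9 higher, CD63 lower), where 38.4% of all genes had none. In SM4 against SM2 it was 4 of the 8, where 28.3% of all genes were.

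Per length, the tetraspanins and TM4SF1 were far more abundant than the other L6 genes in every group. In RPKM (CPM divided by the exon length in kilobases), the order was CD63, CD151, TM4SF1, CD81, CD9, CD82, TM4SF18 and TM4SF4 in NC, in SM2 and in SM4, and in each group no library of a gene overlapped with those of its neighbour in that order. CD63 had 107 ± 0.829 RPKM in NC, 107 ± 6.85 in SM2 and 103 ± 4.33 in SM4. TM4SF18 had 4.76 ± 0.0285, 5.86 ± 0.241 and 9.73 ± 0.456 RPKM, and TM4SF4 had 0.289 ± 0.049, 3.14 ± 0.733 and 3.73 ± 0.133 RPKM. TM4SF4 therefore stayed the lowest of the 8 where it was highest. The closest neighbours were CD9 and CD82 in SM2, at 23.8 to 26.9 and 22.3 to 23.5 RPKM. The middle of the order depended on the length used: with the length of the canonical transcript in place of all exons, TM4SF1 went from rank 3 to rank 5 in NC and SM4 and to rank 4 in SM2, and TM4SF18 and TM4SF4 kept ranks 7 and 8.

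The other tetraspanins of the genome moved in both directions. Of 28 such genes 22 were tested, and in SM2 against NC 7 were called higher and 1 lower (36.4%, beside 22.3% of all genes), with a median log2 fold change of 0.18; without NC replicate 2 it was 4 higher. In SM4 against NC 4 were called higher and 3 lower (31.8%, beside 21.2%), with a median of 0.17. TSPAN9 (chromosome 12, 3077355 to 3286564) rose from 22.2, 25.9 and 24.04 CPM in NC to 34.7, 30.9 and 31.2 CPM in SM2 and 33.2, 33.5 and 31.6 CPM in SM4, log2 rises of 0.42 (adjusted p 8.39e-05) for SM2 and 0.45 (adjusted p 3.9e-05) for SM4. TSPAN1, a tetraspanin of secretory epithelia, was at 104 ± 0.56 CPM in NC, 120.0 ± 3.10 CPM in SM2 and 129.7 ± 0.523 CPM in SM4, with log2 rises of 0.21 for SM2 (adjusted p 0.00088) and 0.32 for SM4 (adjusted p 7.43e-06).

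TSPAN18, which lies beside CD82 on chromosome 11 (44726465 to 44932423), was the one tetraspanin called lower in both comparisons with NC. It stood at 84.4, 84.2 and 86.6 CPM in NC, 55.4, 58.7 and 52.3 CPM in SM2, and 60.5, 66.4 and 64.9 CPM in SM4, and the 3 groups did not overlap. TSPAN18 had a log2 fold change of -0.62 in SM2 (SE 0.0525, adjusted p 3.14e-08) and -0.41 in SM4 (SE 0.0519, adjusted p 5.24e-06). TSPAN8, known from gastrointestinal carcinomas, stood at 15.2, 17.4 and 16.6 CPM in NC, 16.7, 16.9 and 20.6 CPM in SM2 and 12.3, 12.1 and 10.9 CPM in SM4, where it fell by 0.47 on the log2 scale (adjusted p 0.000426).

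TSPAN4, a tetraspanin of migrating cells that lies beside CD151 (842812 to 867116), was highest in the SM2 libraries, like CD81. Its levels were 85.2, 89.1 and 87.9 CPM in NC, 113, 112 and 123 CPM in SM2, and 92.6, 96.3 and 91.8 CPM in SM4. It rose by 0.41 in SM2 against NC (adjusted p 1.82e-06), and its log2 fold change was 0.10 in SM4 against NC (adjusted p 0.155) and -0.31 in SM4 against SM2 (adjusted p 8.71e-05). Of the same 22 genes, 1 was called higher (TSPAN18) and 2 lower (TSPAN8 and TSPAN4) in SM4 against SM2 (13.6%, close to the 12.8% of all genes). The call of TSPAN18 (0.21) was lost without SM4 replicate 2 (0.18) or SM4 replicate 3 (0.20), and the number called higher was 2 without SM2 replicate 1 and 3 without SM2 replicate 3 or with DESeq2. TSPAN33 had group means of 3.46 to 4.60 CPM, with single libraries from 3.13 to 5.12 CPM. It was called in SM2 against NC (0.42, adjusted p 0.0338) but not without NC replicate 2 (0.35), NC replicate 3 (0.42), SM2 replicate 2 (0.33) or SM2 replicate 3 (0.39).

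**Figure D4:**
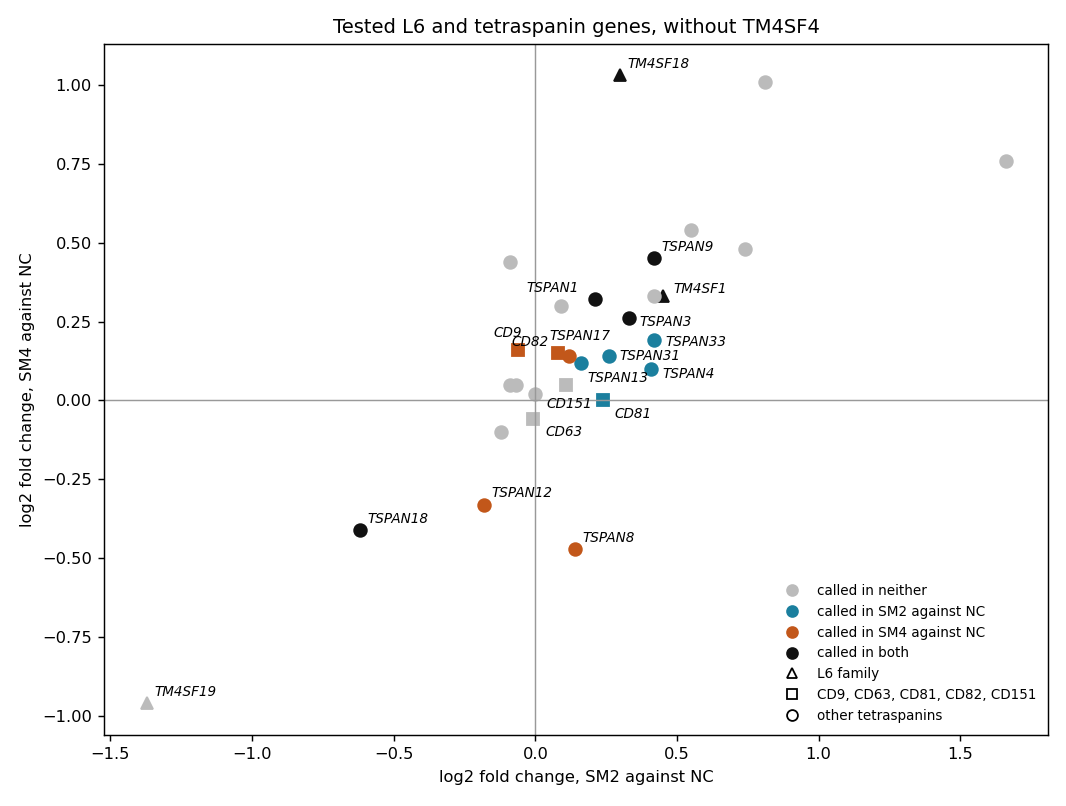
Log2 fold change in SM2 against NC (horizontal axis) and in SM4 against NC (vertical axis) of the tested L6 genes (triangles), the 5 tetraspanins of the list (squares) and the other tetraspanins (circles), without TM4SF4; colours mark in which comparison a gene was called. The axes share the NC libraries, so points can move together through them; TSPAN18 stands at -0.62 and -0.41, TSPAN9 at 0.42 and 0.45, and TM4SF18 at 0.30 and 1.03.

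Transcripts of proteins that tetraspanins hold in the membrane moved in both directions. Of 18 such partners, all tested, 3 were called higher and 8 lower in SM2 against NC (61.1%, beside 22.3% of all genes, median log2 fold change -0.09), and 5 higher and 1 lower in SM4 against NC (33.3%, beside 21.2%, median 0.00). In the second, 3 were higher without NC replicate 2, and 3 were lower without SM2 replicate 3. ITGB4, the integrin subunit of hemidesmosomes that binds CD151, rose in both: 486, 479 and 499.7 CPM in NC, 583, 603 and 550.0 CPM in SM2, and 644, 659.5 and 654 CPM in SM4. On the log2 scale the rise was 0.25 for SM2 (adjusted p 0.000148) and 0.42 for SM4 (adjusted p 1.76e-07), and the groups did not overlap. ITGA3, the laminin receptor subunit that CD151 binds most tightly, was at 1005 ± 1.31 CPM in NC, 971 ± 40.6 CPM in SM2 and 1249 ± 16.8 CPM in SM4, and its log2 fold change of -0.05 in SM2 missed the threshold (adjusted p 0.398) while that of 0.31 in SM4 passed it (adjusted p 3.4e-06).

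EGFR, the epidermal growth factor receptor, which CD9 and CD82 associate with, was lower in the SM2 libraries. It was at 697, 674 and 645 CPM in NC, 519, 523 and 443 CPM in SM2, and 717, 678 and 696 CPM in SM4, with SM2 below all other libraries. EGFR had a log2 fold change of -0.44 in SM2 against NC (adjusted p 3.05e-06), 0.05 in SM4 against NC (adjusted p 0.552) and 0.50 in SM4 against SM2 (adjusted p 1.37e-06). HBEGF, the EGFR ligand whose precursor binds CD9, fell by 0.38 in SM2 against NC (23.7 ± 1.58 to 18.2 ± 1.17 CPM, adjusted p 0.000636). ADAM10, the protease held by several tetraspanins, rose in SM2 against NC by 0.23 (567 ± 21.4 to 667 ± 47.0 CPM, adjusted p 0.00088), and in SM4 against NC by 0.18 (adjusted p 0.00665), a call that was lost without NC replicate 2 (0.15). CD44, the hyaluronan receptor, fell in both, by 0.17 (adjusted p 0.00534) and 0.34 (adjusted p 3.97e-06), from 422 ± 4.99 CPM to 375 ± 18.6 and 332 ± 7.33 CPM. ITGA7 rose in SM4 against NC (1.55 ± 0.319 to 2.55 ± 0.19 CPM, log2 fold change 0.72, adjusted p 0.00664), but not without NC replicate 2 (0.57).

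In SM4 against SM2, 6 of the 18 partners were called higher and 1 lower (38.9%, beside 12.8% of all genes), and 0 lower without SM4 replicate 1 or SM4 replicate 3. The largest of the rises were those of EGFR and of ITGA3 (0.36, adjusted p 1.02e-06), and the lower gene was CD44 (-0.17, adjusted p 0.00855).

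Genes of vesicle formation, the route by which CD9, CD63 and CD81 leave the cell, moved in both directions. Of 20 such genes, all tested, 3 were called higher and 5 lower in SM2 against NC (40.0%, beside 22.3% of all genes, median log2 fold change -0.00), with 3 lower when any single library other than SM2 replicate 1 or SM2 replicate 2 was left out. In SM4 against NC 2 were called higher and 4 lower (30.0%, beside 21.2%, median 0.01), with 1 higher without NC replicate 1 or SM4 replicate 1 and 2 lower without NC replicate 2, SM4 replicate 1 or SM4 replicate 2. SMPD3, the neutral sphingomyelinase that makes ceramide for vesicle budding, rose most: 3.90, 4.49 and 5.13 CPM in NC, 13.0, 12.4 and 11.8 CPM in SM2, and 14.3, 14.4 and 14.7 CPM in SM4. Its log2 fold changes were 1.45 (adjusted p 1.08e-09) and 1.68 (adjusted p 7.8e-11), with no overlap between NC and either group. SDC4, the syndecan that recruits syntenin, went the other way, at 621, 633 and 601 CPM in NC, 469, 449 and 434 CPM in SM2, and 547, 569 and 545 CPM in SM4. It fell by 0.46 in SM2 against NC (adjusted p 7.42e-08) and by 0.16 in SM4 against NC (adjusted p 0.00744), the latter not without NC replicate 2 (-0.14) or SM4 replicate 1 (-0.15). RAB27A, which docks multivesicular bodies at the plasma membrane, fell by 0.35 in SM2 (41.3 ± 2.14 to 32.6 ± 0.974 CPM, adjusted p 0.000124). In SM4 against NC it fell by 0.18 (adjusted p 0.0249). That call was lost without NC replicate 2 (-0.14), NC replicate 3 (-0.19), SM4 replicate 1 (-0.15) or SM4 replicate 2 (-0.19). RAB27B fell by 0.37 in SM4 (21.1 ± 1.11 to 16.3 ± 1.06 CPM, adjusted p 0.0027), and its -0.13 in SM2 was not called (adjusted p 0.331).

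Genes for the compartment that holds CD63 were mostly not called. Of 13 genes for membrane proteins of late endosomes and lysosomes, all tested, 3 were called higher and 0 lower in SM2 against NC (23.1%, median log2 fold change 0.08), a share close to the 22.3% of all genes, and 3 higher and 2 lower in SM4 against NC (38.5%, beside 21.2%, median -0.01). In the latter, 1 was higher without SM4 replicate 2, and 1 was lower without NC replicate 1, NC replicate 2 or SM4 replicate 1. The 2 called lower in SM4 against NC were LAMP3 (log2 fold change -0.37, adjusted p 0.0297) and NPC1 (-0.25, adjusted p 0.00427). The call of LAMP3 was lost without NC replicate 1 (-0.30), NC replicate 2 (-0.39) or SM4 replicate 1 (-0.22). LAMP1, the main lysosomal membrane glycoprotein, rose by 0.16 in SM2 (296 ± 6.09 to 329 ± 3.97 CPM, adjusted p 0.00657) and by 0.18 in SM4 (335 ± 9.28 CPM, adjusted p 0.00235). LAMP2 rose in SM2 alone of the comparisons with NC (102 ± 2.14 to 126 ± 3.20 CPM, log2 fold change 0.30, adjusted p 3.14e-05; SM4 0.08, adjusted p 0.242), and SM4 was lower than SM2 (log2 fold change -0.22, adjusted p 0.00125).

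Other protein families with the same topology, such as claudins, connexins and MARVEL proteins, held many called genes. Of 29 such genes 28 were tested, and 57.1% were called in each comparison with NC, beside 22.3% and 21.2% of all genes: 12 higher and 4 lower in SM2 (median log2 fold change 0.12, 2 lower without SM2 replicate 2), and 8 higher and 8 lower in SM4 (median 0.04). In SM4 the lower genes numbered 5 without NC replicate 1, NC replicate 2, SM4 replicate 1 or SM4 replicate 3. MAL2, needed for transcytosis in polarised epithelia, rose from 599, 599 and 571 CPM in NC to 988, 943 and 949.7 CPM in SM2 and 819.8, 842 and 781 CPM in SM4 (log2 fold changes 0.70, adjusted p 1.41e-10, and 0.47, adjusted p 3.22e-08). SYNGR1, a synaptic vesicle protein, was at 2.03 ± 0.137 CPM in NC, 6.15 ± 0.297 CPM in SM2 and 6.67 ± 0.692 CPM in SM4, and rose by 1.60 (adjusted p 9.87e-09) and 1.71 (adjusted p 2.32e-09). CLDN3, a tight junction claudin of ovarian carcinoma, went from 21.7 ± 0.539 CPM in NC to 38.5 ± 2.16 CPM in SM2 and 27.4 ± 1.33 CPM in SM4, or by 0.83 for SM2 (adjusted p 4.44e-09) and 0.34 for SM4 (adjusted p 0.000423).

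GJA1 and PMP22 were lower in the SM4 libraries than in both other groups. GJA1, the connexin of many gap junctions, stood at 14.4, 12.6 and 11.8 CPM in NC, 11.4, 13.9 and 13.2 CPM in SM2, and 5.49, 5.47 and 5.60 CPM in SM4. Its log2 fold change was -0.01 in SM2 against NC (adjusted p 0.967), -1.22 in SM4 against NC (adjusted p 1.18e-08) and -1.22 in SM4 against SM2 (adjusted p 3.36e-08). PMP22, a myelin and epithelial junction protein, was at 4.07 ± 0.0451 CPM in NC, 5.31 ± 0.995 CPM in SM2 and 2.29 ± 0.0567 CPM in SM4. It fell by 0.83 in SM4 against NC (adjusted p 0.000232) and by 1.21 in SM4 against SM2 (adjusted p 4.61e-06). In SM2 against NC it was called higher by 0.38 (adjusted p 0.0494), a call lost in 12 of 16 alternative settings. In SM4 against SM2, 2 of the 28 were called higher and 10 lower (42.9%, beside 12.8% of all genes), with 1 higher without SM4 replicate 1 or SM4 replicate 2.

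The genes whose pattern was most like that of TM4SF4 came from other families. Likeness was the root mean square difference between log2 CPM profiles over the 9 libraries, each centred on its own mean, among 14411 genes with a mean of at least 1 CPM, and it was not tested because TM4SF4 was picked for this pattern. AMOT, the scaffold protein angiomotin, was closest at 0.39, with 0.365, 0.460 and 0.256 CPM in NC, 3.46, 3.43 and 3.28 CPM in SM2, and 2.68, 2.74 and 3.12 CPM in SM4. PALM, the membrane-bound paralemmin, followed at 0.43 (0.872 ± 0.0472, 6.62 ± 0.807 and 5.85 ± 0.355 CPM), and MCAM, a melanoma and endothelial adhesion molecule, at 0.46 (2.38 ± 0.12, 12.7 ± 0.461 and 16.1 ± 1.38 CPM). BICC1, an RNA-binding protein, stood at 0.52 (0.655 ± 0.134, 5.23 ± 0.14 and 3.73 ± 0.512 CPM) and AUTS2, a nuclear regulator, at 0.53 (0.476 ± 0.278, 5.24 ± 0.484 and 3.47 ± 0.0639 CPM). The other 7 tetraspan genes had differences of 1.33 to 1.65, where the median over all candidates was 1.64.

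**Figure D5:**
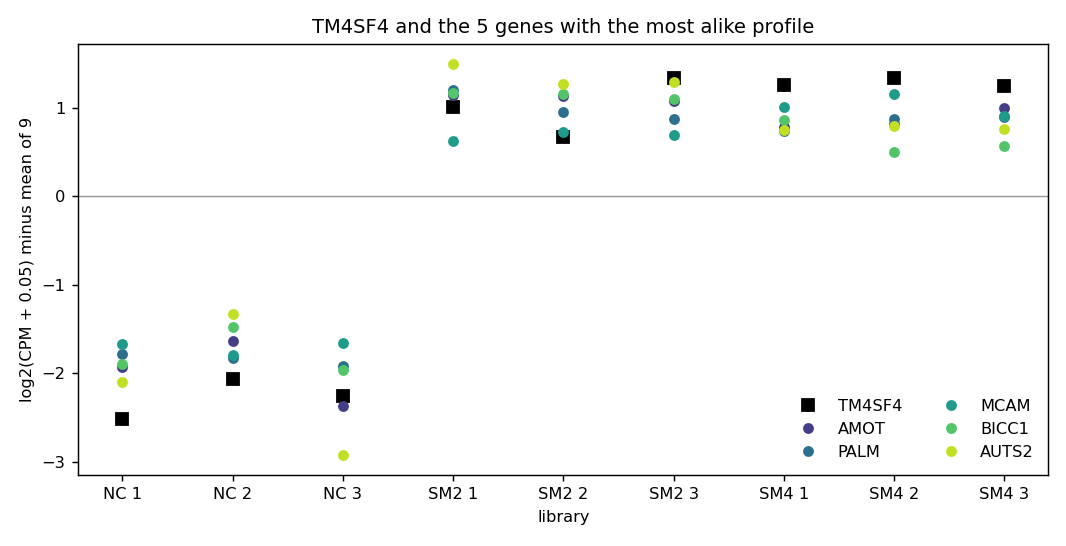
Log2(CPM + 0.05) of TM4SF4 (squares) and of the 5 genes with the most similar profile (circles) in each of the 9 libraries, minus the gene's own mean (vertical axis). All 6 genes lie below their mean in the 3 NC libraries and above it in the 6 others; TM4SF4 was among the highest in SM4 and varied most within SM2.

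m6A was not measured in these libraries, so only the letters of its most common consensus, GGACT, could be counted in the canonical GENCODE v44 transcripts. TM4SF4 held 2 in 1491 bases (1.34 per kilobase), TM4SF1 held 1 (0.64) and TM4SF18 held 4 (1.07), all in its 3′ untranslated region. CD82 held 4 (1.81 per kilobase), and CD9 (1.63), CD63 (1.96), CD81 (1.35) and CD151 (1.29) held 2 each. Among 13785 tested protein-coding genes 91.3% held at least 1, with a median of 0.93 and quartiles of 0.57 and 1.40 per kilobase. The places in TM4SF4, the gene with the largest difference, are shown with 10 bases on each side and the consensus in capitals, at chr3:149474779-149474803 in the 5′ untranslated region and chr3:149498874-149498898 in the coding sequence (GRCh38, plus strand).
TM4SF4 5′ untranslated region: acaattacaaGGACTctctggccaa
TM4SF4 coding sequence: ccctctgtggGGACTgccagtgttg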

How the data were processed

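RNA sequencing libraries of OVCAR5 cells (3 labelled NC, 3 SM2 and 3 SM4) were used, grouped by library title. The authors deposited raw counts per gene with no normalization. Per the labels' processing notes, the tools included fastp, HISAT2, featureCounts and Subread with the build GRCh38 (hg38); versions, annotation and the strand setting are not given in the sources used here, and the labels and the study's methods name different kits and read layouts. Of 60649 identifiers, 60463 matched GENCODE v44 without version.

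In R 4.3.3 with edgeR 4.0.16, counts were filtered (filterByExpr, 40975 genes removed), scaled by TMM (factors 0.989 to 1.01) and tested with the quasi-likelihood F test, all 9 libraries in 1 model of group alone (common biological coefficient of variation 0.0587), with Benjamini-Hochberg adjustment over 19674 genes. SE is the log2 fold change divided by the root of F, and intervals are 95%. CPM and RPKM were computed here, RPKM over the GENCODE exon union. Each library held at least 44103272 counts. The fit was tested on simulated data.

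Named genes are the 8 members, METTL3, and, by rule, from each gene list and comparison the 2 higher and 2 lower called genes with the largest change and a mean of at least 1 CPM (of these, those described), the tested genes within 500 kb of TM4SF4 (of these, those described), and the 5 genes most like TM4SF4. The other L6 genes, overlapping genes such as POLR2L and single cell markers were named outside this rule, after their values were seen. The members and lists were chosen with earlier results of these data known, and the lists were written from general knowledge. Motifs and GGACT were searched by script in RefSeq promoters and GENCODE transcripts; promoters of 6 of the 8 members were in the table used. Alternatives were DESeq2 1.42.0, its size factors or upper-quartile factors in edgeR, no filter, a mean of at least 1 CPM, only the 6 libraries compared, a replicate block, and leaving out each library. The recount of list members under these alternatives was added after seeing the data.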

Additional observations from a re-analysis of the deposited data

Results flagged for a closer look

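For 4 of the 8 genes the libraries labelled SM4 and SM2 differed by edgeR's quasi-likelihood test, which, with NC taken as the control, is a difference between their effects against NC. TM4SF18 was higher in the libraries labelled SM4 by a log2 fold change of 0.73 (adjusted p 2.62e-08), and its effects against NC were 0.30 in SM2 and 1.03 in SM4. CD9 was higher in SM4 by 0.23 (adjusted p 0.00278), after -0.06 and 0.16 against NC. CD81 had a log2 fold change of -0.24 (adjusted p 0.000563), after 0.24 and 0.003 against NC. TM4SF1 had one of -0.13 (adjusted p 0.044), after 0.45 and 0.33 against NC, and this was the least steady of the 4. The direction of each rests on labels that METTL3 itself went against in SM4. If SM4 were the control, the same tests would compare SM2 with its control, with TM4SF18 at -0.73, CD9 at -0.23, CD81 at 0.24 and TM4SF1 at 0.13, and METTL3 at -0.63. Which of these readings holds cannot be told from the labels and counts.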

How the results depend on the processing

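Each of 69 results was recomputed under 16 alternatives, 9 of which leave out 1 library, and 41 results kept their direction and side of the threshold, or a count within 1.5 times, under all of them. The log2 fold changes of TM4SF4 against NC, which had no test, are among the 41. For them, alike meant the same direction and a move smaller than the SD of log2 CPM within the groups. The calls of TM4SF1 and TM4SF18 against NC, of CD81 in SM2 against NC and of TM4SF18, CD9 and CD81 in SM4 against SM2 held under every alternative. The sign of values near 0 changed: CD63 in SM2 against NC was 0.003 with upper-quartile factors and -0.06 to 0.03 with 1 library left out, CD81 in SM4 against NC was -0.002 with only the 6 libraries compared, -0.005 without NC replicate 1 and -0.02 without SM4 replicate 2, and CD63 in SM4 against SM2 was -0.09 to 0.000 with 1 library left out. TM4SF1 in SM4 against SM2 missed the threshold with DESeq2 size factors (-0.12), without a filter (-0.13) and with only the 6 libraries compared (-0.13), and lay between -0.14 and -0.12 with 1 library left out. Leaving out 1 library gave CD9 -0.11 to -0.03 in SM2 against NC and 0.14 to 0.18 in SM4 against NC, CD82 0.11 to 0.21 in SM4 against NC, CD151 0.07 to 0.15 in SM2 against NC, 3 to 5 members called in SM4 against NC (2 to 4 without TM4SF4), and 1574 to 2748 genes called in SM4 against SM2, the lowest without SM4 replicate 1. The cause of these changes was not tested.

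The replicate numbers did not pair the libraries: deviations of same-numbered libraries from their group means correlated at -0.053 to 0.0453 in 9 pairs. With a replicate block, CD151 in SM2 against NC kept its log2 fold change of 0.11 and passed the threshold (adjusted p 0.0433). That made 4 members other than TM4SF4 called there in place of 3, and the block changed no other call of a member. It called 4693, 4484 and 2815 genes in place of 4389, 4173 and 2518.

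Depth limits TM4SF4 in NC, where it had 16 to 28 counts per library. Groups of 3 libraries with no statement on separate cultures limit every p-value, and 1 library, SM2 replicate 3, stood apart.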
